A study of Mus musculus with 16 samples.

Results

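The 2 H3K27Ac lists of the series were compared with each other, the list of the female (XX) against that of the male (XY) mouse embryonic stem (ES) cells. Regions were taken from chromosomes 1 to 19 alone, which left 27785 regions in the XX list and 25301 in the XY list, 53086 of the 162760 regions in the 6 lists of the series, and 21418 of 22367 protein-coding genes. A gene start was called acetylated if any transcription start site (TSS) of the gene had a region at most 2 kb away, a gene body if a region overlapped it, and a neighbourhood if a TSS had a region at most 50 kb away. Regions of the lists that overlapped by at least 1 bp were counted as shared, and all others as list-only. The series holds 16 chromatin immunoprecipitation (ChIP) libraries for 3 histone marks, IgG and input. The XX group is the lines BCF3 and BCF4 and the XY group the lines BCM1 and BCM2, all C57BL/6 x CAST/EiJ hybrids at passages 7 to 10, kept in serum and LIF on inactivated fibroblasts of both sexes, from which they were separated before harvest. The strain labels carry a different number after the F in every H3K27Ac library, 7 and 10 in XX lines and 1 and 4 in XY lines, and whether these are generations was not settled here.

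H3K27Ac is an acetyl group on lysine 27 of histone H3, written by the acetyltransferases p300 and CBP at promoters and enhancers that are in use. It excludes methylation of the same lysine on the same histone tail, the mark that Polycomb repressive complex 2 places at silent developmental genes. In ES cells wide acetylated stretches lie at the genes that hold the pluripotent state, and XX ES cells carry a second active X chromosome.

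Each list stands for its lines together, with coordinates and neither a count nor a score. There is no replicate, no SD and no test between the sexes. Intervals are exact binomial 95% intervals over regions or genes and cover counting error only. The lists describe cell populations, so fewer cells with a mark and less of the mark per cell cannot be told apart. Depth is unknown, and which list was called more strictly cannot be told apart from the sex.

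Some starts had a region in 1 list and none of the other list over the gene or within 50 kb. The 300 bases before the start are shown for 4 of them, read from mm9, because they show how much the CG content varies among these genes, with each CG in capitals. Fzd9, a Wnt receptor (chr5:135727101-135727400, minus strand), and Defb46, a beta-defensin (chr8:19239616-19239915, plus strand), had an acetylated start in the XX list alone. Irx3, a homeobox factor of neural and cardiac patterning (chr8:94325554-94325853, minus strand), and Anxa8, a calcium-dependent phospholipid-binding annexin (chr14:34898867-34899166, plus strand), had one in the XY list alone.
Fzd9: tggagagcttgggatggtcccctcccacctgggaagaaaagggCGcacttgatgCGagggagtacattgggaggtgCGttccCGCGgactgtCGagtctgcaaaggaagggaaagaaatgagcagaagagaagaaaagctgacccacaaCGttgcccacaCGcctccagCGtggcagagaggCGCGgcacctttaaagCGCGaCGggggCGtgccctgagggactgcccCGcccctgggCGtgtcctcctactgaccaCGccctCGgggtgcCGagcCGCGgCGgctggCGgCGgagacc
Defb46: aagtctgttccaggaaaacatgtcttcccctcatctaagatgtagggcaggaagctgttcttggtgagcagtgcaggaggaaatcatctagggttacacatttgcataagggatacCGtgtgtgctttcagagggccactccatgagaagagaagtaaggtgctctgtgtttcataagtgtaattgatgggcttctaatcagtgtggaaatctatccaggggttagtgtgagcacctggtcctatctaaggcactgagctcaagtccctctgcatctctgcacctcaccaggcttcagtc
Irx3: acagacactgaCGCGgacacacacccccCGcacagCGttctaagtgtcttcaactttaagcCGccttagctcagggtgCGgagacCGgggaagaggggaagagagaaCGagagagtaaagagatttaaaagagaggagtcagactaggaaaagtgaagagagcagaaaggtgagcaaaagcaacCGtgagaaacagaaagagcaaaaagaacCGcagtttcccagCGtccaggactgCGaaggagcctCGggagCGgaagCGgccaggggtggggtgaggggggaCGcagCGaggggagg
Anxa8: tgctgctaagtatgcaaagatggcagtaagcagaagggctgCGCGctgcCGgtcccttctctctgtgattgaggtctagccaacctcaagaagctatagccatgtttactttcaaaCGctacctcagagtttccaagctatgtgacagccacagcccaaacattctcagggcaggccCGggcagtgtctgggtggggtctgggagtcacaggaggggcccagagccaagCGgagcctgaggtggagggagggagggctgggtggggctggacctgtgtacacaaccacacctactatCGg
Within these windows CG occurs 25 times at Fzd9, 1 time at Defb46, 17 times at Irx3 and 7 times at Anxa8. The acetylated regions over them are 5799 bp wide at Fzd9 and 7799 bp at Defb46 in the XX list, and 6999 bp at Irx3 and 7199 bp at Anxa8 in the XY list.

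Most acetylated regions lay in both lists, and the list-only ones of either sex lay mainly away from gene starts, more so in XX. The XX list covered 140.4 Mb with a median width of 3599 bp, and the XY list 132.4 Mb with a median of 3799 bp. Regions found in the XX list only numbered 5217 (18.8% of that list, interval 18.3 to 19.2%), and those in the XY list only 2659 (10.5%, 10.1 to 10.9%). At gene starts 897 regions were XX-only and 718 XY-only. In gene bodies they were 2019 XX-only and 977 XY-only, within 50 kb of a TSS 1282 XX-only and 540 XY-only, and farther away 1019 XX-only and 424 XY-only. Regions over 2 kb from every TSS are called distal here, and 69.0% (67.8 to 70.1%) of the list-only ones were XX-only, 4320 against 1941. Of the XX-only regions 82.8% were distal, and of the XY-only regions 73.0%, beside 61.2% of all regions in the XX list and 58.2% in the XY list. On each of the 19 autosomes more regions were XX-only than XY-only, with an XX share between 60.5% on chromosome 15 and 70.5% on chromosome 4. The whole XX list was also longer on each of them, from 1.06 times the XY list on chromosome 15 to 1.13 times on chromosome 12. The split by chromosome was not repeated with equal numbers of regions, so it cannot be told apart from list length.

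**Figure D1:**
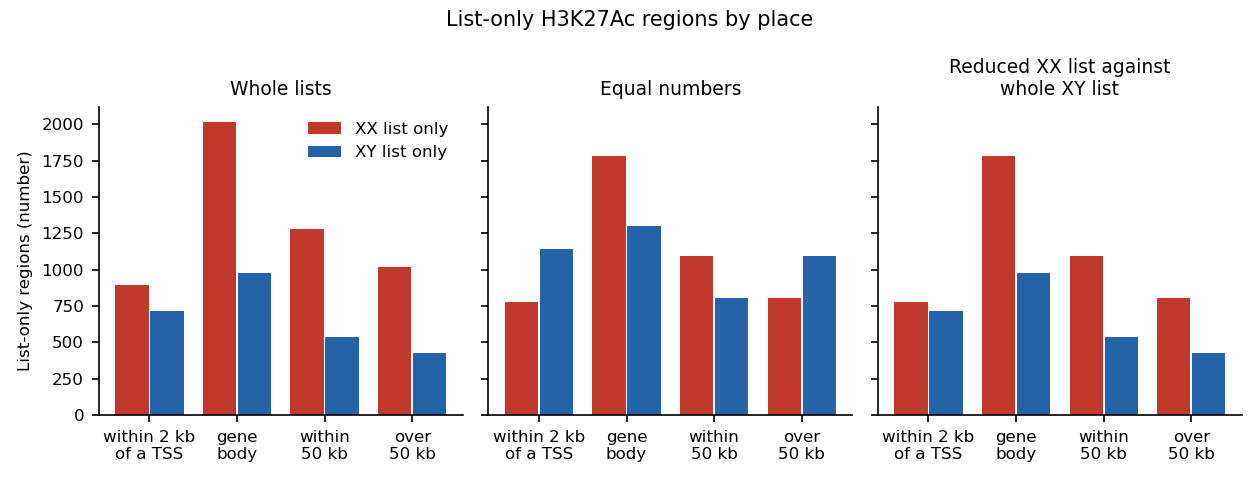
List-only H3K27Ac regions by place, with the XX list in red and the XY list in blue and the number of regions on the y axis. With whole lists XX-only regions outnumber XY-only ones at every place, from 897 against 718 at gene starts to 2019 against 977 in gene bodies, and with equal numbers gene starts (775 against 1144) and regions over 50 kb away (802 against 1096) go the other way.

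The XX list is longer, so the comparison was repeated with its 25301 widest regions against all 25301 of the XY list. This left out 2484 XX regions and kept none under 1399 bp, while 1598 XY regions (6.32%) are narrower than that and stayed in. The list-only regions then numbered 4457 in XX and 4345 in XY. At gene starts 775 were XX-only and 1144 XY-only, and over 50 kb from a TSS 802 were XX-only and 1096 XY-only. In gene bodies 1784 were XX-only and 1303 XY-only, and within 50 kb 1096 XX-only and 802 XY-only. The distal XX share was 53.5% (52.3 to 54.7%). Part of the new XY-only regions lie where a narrow XX region was removed, by the construction of the reduction. With the reduced XX list set against the whole XY list, and XY-only regions taken against the whole XX list, an alternative chosen after seeing the data, 3682 distal regions were XX-only and 1941 XY-only (65.5% XX, 64.2 to 66.7%), and 775 against 718 regions at gene starts.

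Acetylated gene starts were found in 1 list only about equally often in XX and XY. A start was acetylated in both lists at 10396 genes (48.5%), in the XX list only at 604 and in the XY list only at 605, each 2.82% of the 21418 genes tested (XX share of the list-only starts 49.96%, 47.1 to 52.8%). Gene bodies were XX-only at 623 genes (2.91% of all) and XY-only at 568 (2.65%), an XX share of 52.3% (49.4 to 55.2%), and acetylated in both lists at 53.5% of all genes. Neighbourhoods within 50 kb were XX-only at 619 genes (2.89%) and XY-only at 376 (1.76%), an XX share of 62.2% (59.1 to 65.2%), and acetylated in both lists at 77.1%. With equal numbers of regions the XX share of starts was 33.6%, with 513 XX-only genes (2.4% of all) against 1012 XY-only genes (4.72%) and 46.6% acetylated in both lists. For bodies it was 34.7%, with 524 XX-only genes (2.45%) against 988 XY-only genes (4.61%) and 51.5% in both lists. For neighbourhoods it was 35.5%, with 484 XX-only genes (2.26%) against 881 XY-only genes (4.11%) and 74.8% in both lists. The direction of the neighbourhood split thus differed between these settings. Equal numbers also drop narrow regions from the XX list alone, so length and width cannot be told apart here. With the reduced XX list against the whole XY list, and XY-only taken against the whole XX list, the XX share of neighbourhoods was 56.3%. With regions of at least 2 kb in both lists it was 52.5%. Among the 10000 widest regions of each list the XX share was 43.5% at starts, 44.8% at bodies, 47.3% in neighbourhoods and 54.5% at distal regions.

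**Figure D2:**
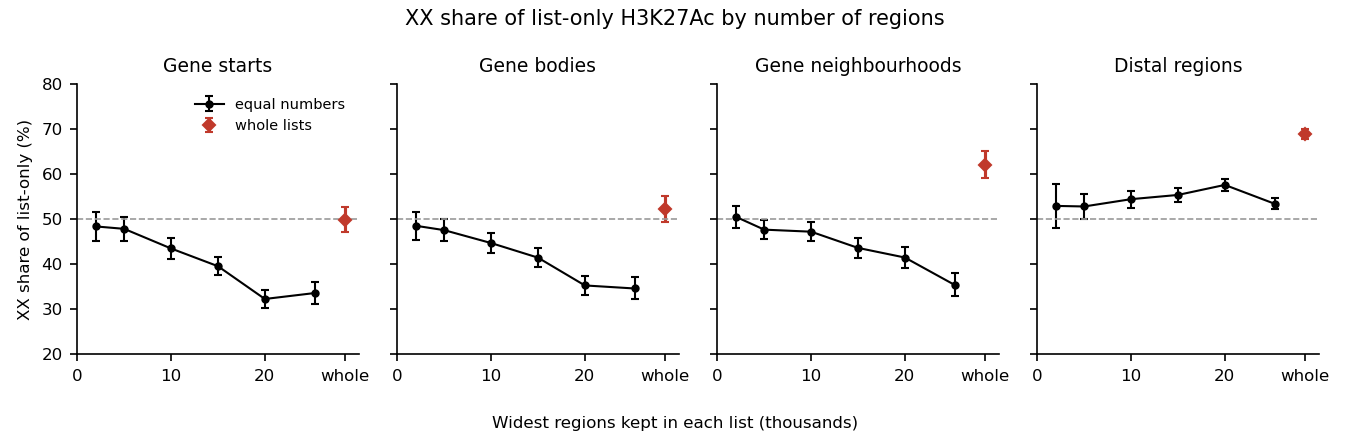
XX share of list-only gene starts, bodies, neighbourhoods and distal regions against the number of widest regions kept in each list, with exact binomial 95% intervals as bars. Black points are equal numbers of regions, and the red diamond is the whole lists. Gene starts are at 48.4% XX with 2000 regions, 32.3% with 20000 and 33.6% with 25301, distal regions stay between 52.9 and 57.7%, and the whole lists lie above the equal-number points in every panel.

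At 102 genes (0.476% of all) the start was acetylated in the XX list and no XY region lay over the gene or within 50 kb, and at 73 of them (0.341%) this held with the reduced XX list too. Beside Defb46 and Fzd9 the widest regions among these 73 belonged to Gm14434 (6799 bp), to Ppp1r3d, a targeting subunit of protein phosphatase 1, and its neighbour 9030418K01Rik, which share a region of 5999 bp, and to Atp2b2, a calcium pump of the plasma membrane (5799 bp). Sri, which encodes the calcium-binding protein sorcin, had a region of 5599 bp with the nearest XY region 307858 bp away. Nkx2-2, a homeobox factor of the ventral neural tube and the endocrine pancreas, had a region of 4399 bp in the XX list, 262 bp from its nearest TSS, and the nearest XY region was 96421 bp away. Ccno, a cyclin-like gene needed for multiciliated cells, had 4399 bp, and Dpysl4, a collapsin response mediator, 4999 bp. Padi3 (5199 bp), Arhgef16 (4199 bp), Gm11077 (4199 bp), Grap2 (3999 bp) and Klk11 (3799 bp) complete the 15 widest. H3K27Me3, the Polycomb mark, lay at the start in both sexes at 9 of the 15.

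In the other direction 119 genes (0.556% of all) had an acetylated start in the XY list and no XX region within 50 kb or over the gene. The widest belonged to Ppl, which encodes the cornified-envelope protein periplakin, with 7999 bp and the nearest XX region 70426 bp away. Tinagl1, a secreted matrix protein, Anxa8 and Mafa, an activator of insulin transcription, had 7199 bp each, and Irx3 6999 bp with the nearest XX region 198753 bp away. Ehf, an epithelial Ets factor, had 6599 bp, Perp, a desmosome gene, 4599 bp, Cebpa, a leucine zipper factor of myeloid and fat cells, 4199 bp and Irf2, an interferon regulatory factor, 3999 bp. The other genes among the 15 widest were D630003M21Rik (6199 bp), 1300014I06Rik (4799 bp), Fam110a (4599 bp), Mpp2 (4399 bp), Hemt1 (4399 bp) and Qsox1 (4199 bp). Several of these, among them Ppl, Perp and Anxa8, are known from epithelia, but the genes were not chosen or tested as a group. H3K27Me3 lay at the start in both sexes at 12 of the 15.

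Most list-only starts had a region of the other list within 50 kb, at shares close to those of all genes. Of the 604 XX-only starts 57.8% had an XY region within 20 kb and 81.8% within 50 kb. Of the 605 XY-only starts 56.5% had an XX region within 20 kb and 79.0% within 50 kb. Among all genes 78.90% had an XY region and 80.03% an XX region within 50 kb. These regions need not be shared between the lists. The median width of the list-only region was 2.60 kb at XX-only and 2.80 kb at XY-only starts. H3K27Me3 lay within 2 kb of the start in both sexes at 50.2% of XX-only and 57.4% of XY-only starts, against 19.9% of starts acetylated in both lists and 30.2% of those acetylated in neither. H3K4Me1, which marks enhancers and the flanks of promoters, was in both sexes at 73.0% of XX-only, 72.9% of XY-only, 88.5% of shared and 22.3% of unacetylated starts. Among the starts whose bases are shown, Fzd9 and Irx3 had H3K4Me1 and H3K27Me3 in both sexes. Defb46 had neither mark in either sex, and Anxa8 had H3K4Me1 in XX alone and no H3K27Me3. A start counted for both H3K27Ac and H3K27Me3 need not carry them in the same cell or on the same nucleosome.

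The bases before the start placed the list-only starts between the other classes. In the 300 bases upstream of the 5′-most TSS the median number of CG was 11 at XX-only and 12 at XY-only starts, with 17 at starts acetylated in both lists and 3 at starts acetylated in neither. Windows with over 50% G and C and an observed-to-expected CG ratio over 0.6 were 36.1% of XX-only and 39.6% of XY-only starts, against 58.7% of shared and 13.1% of unacetylated starts. Of 10 motifs searched, those given were chosen after their values were seen. The AP-1 motif TGACTCA, searched on both strands, was present in 3.15% of XX-only and 5.29% of XY-only windows, against 4.46% of the windows of all genes. The octamer ATGCAAAT was present in 2.65% of XX-only and 0.992% of XY-only windows, against 1.82% of all. These are 19 XX-only and 32 XY-only windows for AP-1 and 16 XX-only and 6 XY-only windows for the octamer, given as a description.

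**Figure D3:**
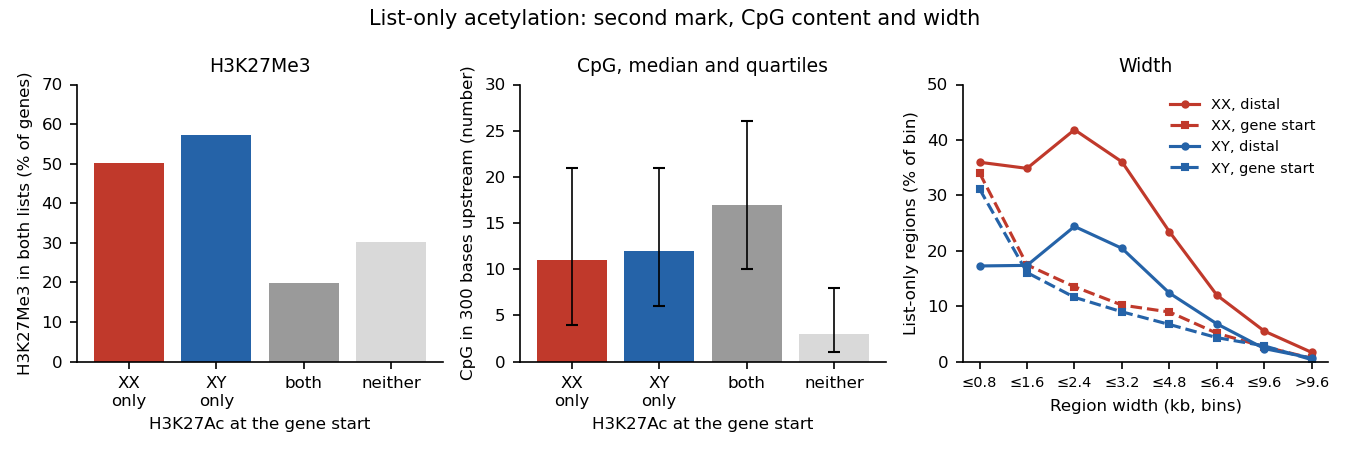
Left, percent of genes with H3K27Me3 near the start in both sexes, by whether the start carries H3K27Ac in the XX list only, the XY list only, both or neither. Middle, CG in the 300 bases upstream for the same classes (bars, medians, whiskers, quartiles). Right, percent of regions that are list-only against region width for distal regions (solid lines) and gene starts (dashed lines). H3K27Me3 is at 50.2 and 57.4% of XX-only and XY-only starts and 19.9% of shared ones. The lines fall to 1.67% (XX) and 0.645% (XY) of distal regions over 9.6 kb, and wide regions meet the 1 bp overlap rule more easily.

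List-only regions were narrower than shared ones, with a median width of 2599 bp in either list against 3999 bp. Of the distal regions between 1.6 and 2.4 kb, 41.8% were XX-only in the XX list and 24.4% XY-only in the XY list. Over 9.6 kb these shares were 1.67% in the XX list and 0.645% in the XY list. A wider region meets the other list by 1 bp more easily, so part of these width differences follows from the overlap rule. Regions that paired 1 to 1 between the lists had a median width ratio of 1, with the XX region wider in 8760 of 19708 pairs and the XY region in 8975. At gene starts the XX region was wider in 3694 pairs and the XY region in 4110.

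The widest XX-only region lay downstream of Sox2, a core pluripotency factor. It spans 17.4 kb at chr3:34602601-34619999, 53.5 kb from the nearest Sox2 TSS, and a second XX-only region of 6999 bp lies beside it from 34594201 to 34601199. The start of Sox2 was acetylated in both lists. Gm7697 had a region of the same width, 15.2 kb from its start, followed by Lima1, an actin-binding protein, with 16.6 kb at chr15:99610801-99627399. Kcnk5, a potassium channel, had 15.4 kb, Epha4, a receptor of ephrins, 14.8 kb within its body, and Dtx1, a ubiquitin ligase of Notch signalling, 14.8 kb over its start. The Lima1 region lies over an inner TSS near the end of the gene. Arid2, a subunit of a chromatin remodelling complex, had 14.2 kb, and Bcar3 and Plekha5 12.8 kb each inside the gene. The remaining region, of 14.8 kb near Gm13145, ended 1001 bp from an XY region. Both sexes had H3K4Me1 over 8 of these 10 regions, the exceptions being the one near Gm7697 (in neither) and the one near Gm13145 (in XX only). H3K27Me3 lay under the widest region near Sox2 and the region at Dtx1 in both sexes and under none of the others.

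The widest XY-only region covered Nrarp, a feedback inhibitor of Notch signalling, with 15.8 kb at chr2:25022801-25038599. Foxa2, the pioneer factor of definitive endoderm, followed with 14.4 kb at chr2:147861001-147875399 over its start, while the XX list had only a region of 1999 bp, 5.30 kb upstream. Smad3, which carries Nodal and activin signals to the nucleus, had 4 XY-only regions along the gene, of 13599, 10999, 6199 and 5399 bp, and acetylation at its 5′ end in both lists. A region of 11.4 kb covered S100a3 and S100a4, genes of calcium-binding proteins. Tns3 and Pgs1 (with Dnahc17 under the same region) had 11.2 kb each, Tppp3 (with Zdhhc1) 10.6 kb over its start, the vitamin B12 receptor gene Cubn 10.2 kb and Ubl3 9999 bp. Both sexes had H3K4Me1 over 8 of these 10 regions, while the S100a3 region had it in XY only and the Cubn region in neither. H3K27Me3 lay under the regions at Nrarp, Foxa2 and Tppp3 in both sexes and under none of the others.

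**Figure D4:**
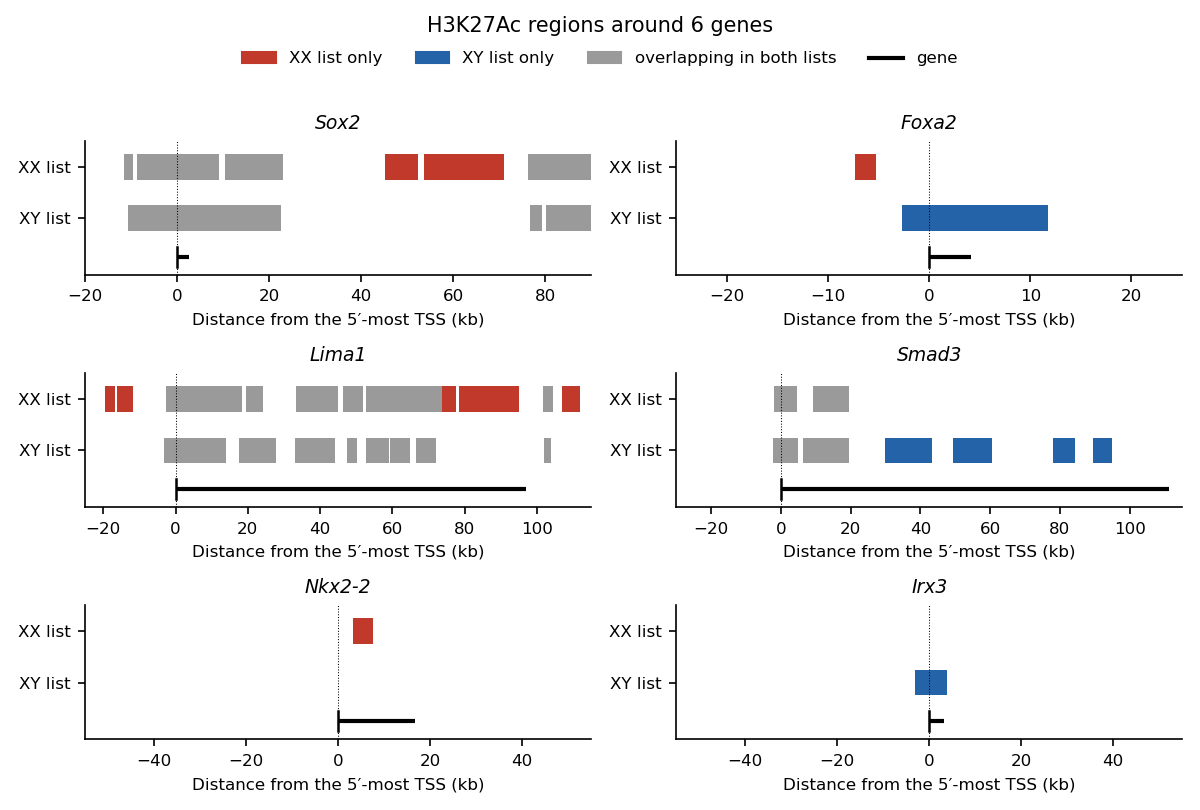
H3K27Ac regions around 6 genes against distance from the 5′-most TSS in kb, drawn in the direction of transcription, with the XX list above the XY list. Grey regions overlap between the lists, red ones are XX-only and blue ones XY-only, and the black line is the gene. Sox2 has 2 XX-only regions downstream, Lima1 has 5, Smad3 has 4 XY-only regions, Nkx2-2 has a region in the XX list alone and Irx3 in the XY list alone, and Foxa2 has an XY-only region over its start and an XX-only one 5.30 kb upstream.

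The bases covered within 50 kb of a gene's TSSs were counted as well, since a stretch can be split by a short gap in 1 list. The windows are longer for genes with several TSSs. Of all genes 9175 had more acetylated bases in XX and 7793 more in XY. Lima1 had the largest excess in XX, with 99.99 kb in XX and 60.8 kb in XY, and its neighbour Lass5 had 59.1 kb in XX and 28.9 kb in XY. Zfp64 had 61.9 kb in XX and 30.3 kb in XY. Rbm20, a splicing factor of the heart, had 65.3 kb in XX and 36.5 kb in XY, and Abl1, a tyrosine kinase, 47.6 kb in XX and 21.2 kb in XY. Mga, a repressor of germline genes, had 60.8 kb in XX and 33.2 kb in XY, and Map2k1, the kinase MEK1, 94.4 kb in XX and 68.4 kb in XY. Mtap4, Ctsa and Papola had 25.3 to 28.2 kb more in XX.

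Smad3 had the largest excess in XY, with 23.0 kb in XX and 65.6 kb in XY. The 4 genes next to Nrarp, A830007P12Rik, Cobra1, 4933433C11Rik and Fam166a, had between 19.2 and 31.5 kb in XX and between 47.8 and 57.6 kb in XY, and share the same regions. Prrx2, a homeobox gene of mesenchyme, had 11.997 kb in XX and 40.4 kb in XY, and its start was acetylated in XY alone. Ptpn14, a phosphatase of the Hippo pathway, had 50.6 kb in XX and 75.8 kb in XY. Cic, a repressor relieved by ERK signalling, had 47.7 kb in XX and 70.5 kb in XY, Iqgap1 36.6 kb in XX and 59.2 kb in XY, and Srebf2, the activator of cholesterol synthesis, 32.6 kb in XX and 54.996 kb in XY.

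The genes that hold the pluripotent state were acetylated in both lists. Of 27 pluripotency factors 26 had an acetylated start in both, none in the XX list only and 1, Gbx2, in the XY list only (2199 bp, whereas the nearest XX region lay 2065 bp from a Gbx2 TSS). By the bases within 50 kb, 20 had more in XX and 6 more in XY, beside 9175 of all genes with more in XX and 7793 with more in XY. Other lists leaned to XX too, with 17 housekeeping genes against 6 and 20 Polycomb genes against 9. Axon guidance genes went the other way, with 13 more in XX and 20 more in XY. Neighbours such as Dppa2 and Dppa4 share their regions and are not separate observations. Tet1, an enzyme that oxidises methylcytosine, had 100.6 kb in XX and 81.8 kb in XY. Klf2 had 79.9 kb in XX and 69.3 kb in XY, Tbx3 42.8 kb in XX and 33.6 kb in XY, and Nanog 73.0 kb in XX and 64.6 kb in XY. Prdm14, a repressor of differentiation in naive cells, had 49.2 kb in XX and 44.4 kb in XY, and Klf4 12.6 kb in both. Stat3, the factor that LIF activates, stood apart with 14.2 kb in XX and 34.8 kb in XY.

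Of 28 genes of LIF, Nodal, FGF and BMP signalling 25 had an acetylated start in both lists. Jak1, the kinase of the LIF receptor, had one of 1599 bp in the XY list, and the nearest XX region lay 88713 bp away. The bases within 50 kb were more in XX at 12 of these genes and more in XY at 16. The ligand Nodal and its inhibitors Lefty1 and Lefty2 had more in XX, with 66.2 kb in XX and 53.2 kb in XY at Nodal, 74.8 kb in XX and 52.4 kb in XY at Lefty1, and 65.0 kb in XX and 56.8 kb in XY at Lefty2. The receptors Acvr1b (7.997 kb in XX, 16.8 kb in XY) and Acvr2b (5.20 kb in XX, 17.2 kb in XY) and the transducer Smad3 had more in XY. So did the inhibitory Smad7 (48.4 kb in XX, 55.6 kb in XY), the repressor Skil (20.017 kb in XX, 21.396 kb in XY) and the activin antagonist Fst (6.998 kb in XX, 8.798 kb in XY). These genes were not tested as a group, and neighbouring starts such as those of Lefty1 and Lefty2 can share regions.

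Developmental factors were mostly unacetylated, with single starts in 1 list. The counts stand beside 2.82% of all genes with a list-only start in each direction, and 2.89% with an XX-only and 1.76% with an XY-only neighbourhood. Of 24 mesoderm and endoderm factors 3 had an XX-only start and 1 an XY-only start. The XX-only ones were Eomes, which drives mesoderm (999 bp), Gsc, of the organiser (2599 bp), and Hhex, of anterior endoderm (1999 bp), and the XY-only one was Foxa2. With the reduced XX list the start of Eomes had no region in either list. Of 31 cardiac factors none was XX-only and 2 were XY-only, Irx3 and Meis1, a homeobox factor of heart and blood (8199 bp). In the neighbourhoods none was XX-only and 3 were XY-only, the third being Irx4 with 2.40 kb. Of 25 neural factors 2 starts were XX-only, Nkx2-2 and Neurog3 (3599 bp), and none XY-only, and 6 neighbourhoods were XX-only and none XY-only. Among the other neighbourhoods were those of Neurog1 (3.40 kb) and the pair Dlx1 and Dlx2, which share 1.60 kb. Pax6, an eye and brain factor acetylated in both lists, had 14.4 kb in XX and 3.60 kb in XY within 50 kb.

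The next counts stand beside the same shares of all genes, 2.82% with a list-only start in each direction. For neighbourhoods these are 2.89% XX-only and 1.76% XY-only. In short lists 1 gene moves the share by several percent. Of 17 trophoblast genes 3 had XX-only starts, Eomes, Gata3 (3399 bp) and Ascl2 (2799 bp), and 1 an XY-only start, the keratin gene Krt8 (4599 bp). Within 50 kb Krt8 had 12.4 kb in XX and 28.4 kb in XY, and its partner Krt18 14.8 kb in XX and 31.6 kb in XY. These genes are neighbours with overlapping windows, so they are not separate observations. Of 39 Hox genes, which pattern the body axis, 2 starts were XX-only, Hoxc12 (6799 bp) and Hoxc13 (3399 bp), none was XY-only, and 36 were acetylated in neither list. A region of 2399 bp near Hoxb9 gave 5 of the 6 XX-only Hox neighbourhoods, those of Hoxb5 to Hoxb9, so that they are not separate observations. Of 29 ion channel genes 2 were XX-only at the start, Cacna1c (4799 bp) and Hcn4 (2799 bp), and of 42 axon guidance genes 2 were XX-only, Sema6d (2599 bp) and Efna3 (6799 bp), and 4 XY-only, Ntn4 (3599 bp), Unc5b (9199 bp), Plxna2 (1399 bp) and Epha1 (1999 bp).

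Chromatin genes were mainly acetylated in both lists, beside 48.5% of all genes with a shared start and 2.82% with a list-only start in each direction. Of 30 Polycomb genes 25 had a shared start and 3 an XX-only start, Ezh1, a methyltransferase subunit (1399 bp), and the ring-finger genes Bmi1 (2199 bp) and Pcgf5 (1799 bp), and none an XY-only start. Of 50 chromatin enzymes 43 were shared, Smarca2, an ATPase of BAF complexes, was XX-only (2799 bp), and Hdac3 (4199 bp), Hdac7 (4399 bp) and Smarcd3 (2199 bp) were XY-only. The 21 DNA methylation enzymes had no list-only start, and 20 were acetylated in both. Of 31 imprinted genes Ascl2 and Plagl1 (6799 bp) were XX-only and none XY-only, and of 29 germline genes 3 were XX-only, Rpl10l (1399 bp), the egg-coat gene Zp3 (5199 bp) and Ybx2 (3999 bp). Of 23 housekeeping genes 21 were shared and Gusb was XY-only (3199 bp), of 21 cholesterol genes 20 were shared and Sc5d was XY-only (999 bp), and 73 of 75 ribosomal protein genes and 66 of 67 replication histone genes were shared. With the reduced XX list the starts of Ezh1 and Rpl10l had no region in either list. These lists overlap, since Eomes, Ascl2 and Ybx2 each stand in several.

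**Figure D5:**
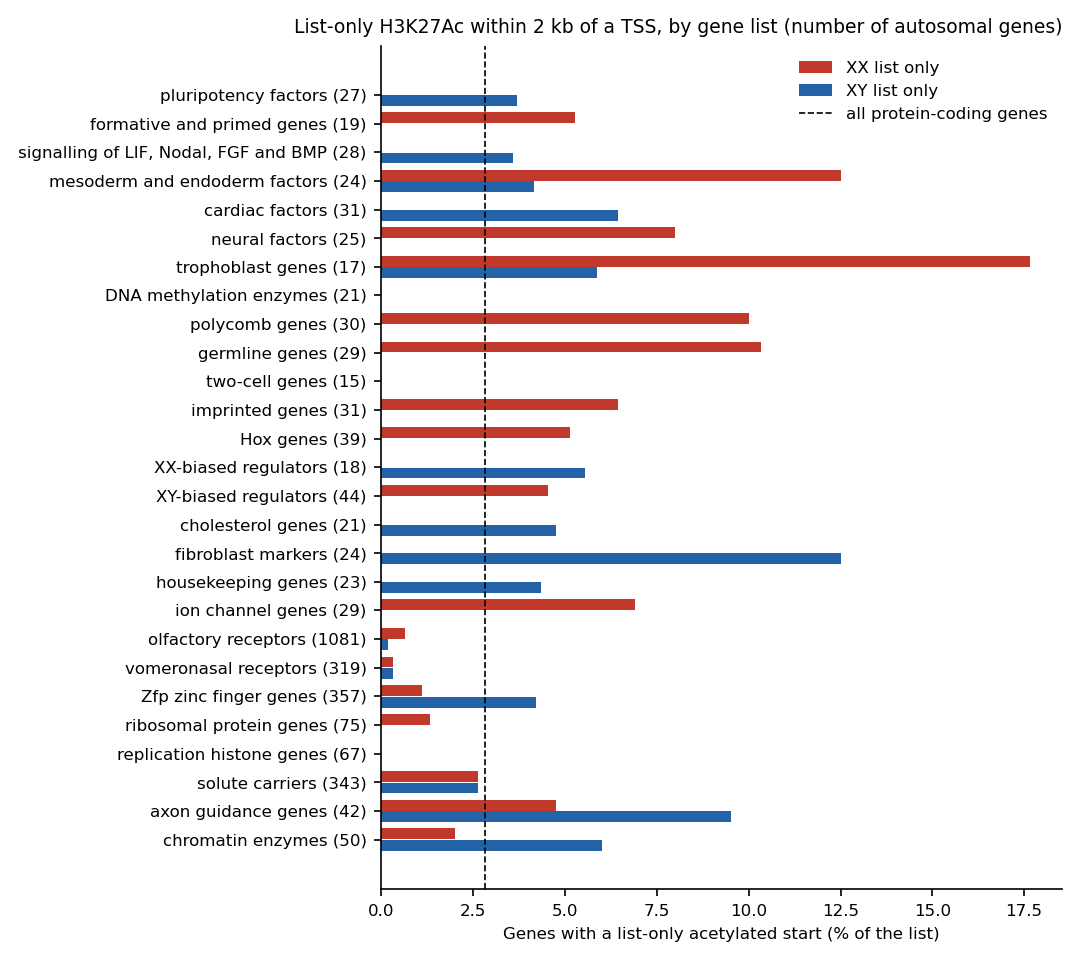
Percent of the autosomal genes of each list with an H3K27Ac region within 2 kb of a TSS in the XX list only (red) or the XY list only (blue), with the number of genes in parentheses. The dashed line is the share of all protein-coding genes, 2.82% in either direction. Short lists move by several percent with 1 gene, as with 3 of 17 trophoblast genes.

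The Zfp zinc finger genes had 4 XX-only starts and 15 XY-only starts among 357, that is 1.12% XX-only and 4.20% XY-only beside 2.82% of all genes in either direction. With the reduced XX list there were 3 XX-only and 35 XY-only starts, beside 513 XX-only and 1012 XY-only among all genes. Acetylated regions at Zfp starts are narrow, with medians of 3399 bp in XX and 3599 bp in XY against 4399 bp in XX and 4599 bp in XY at all starts acetylated in both lists. Whether the widths bear on this shift was not tested. Of 1081 olfactory receptor genes, which are used in sensory neurons of the nose, 65 (6.01%) had an acetylated neighbourhood in the XX list only and 23 (2.13%) in the XY list only, beside 2.89% XX-only and 1.76% XY-only among all genes. Within 50 kb of any of the 1081 genes lay 44 XX-only and 14 XY-only regions, also counting those near genes with both lists. With the reduced XX list the numbers were 30 XX-only and 101 XY-only neighbourhoods, the other direction, beside 484 XX-only and 881 XY-only among all genes. Solute carriers had 9 XX-only and 9 XY-only starts among 343.

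The regulators that the study lists for sex-biased expression were examined next, 18 with higher expression in XX and 44 in XY lines on the autosomes, without Tdrd5, which was not matched to a protein-coding gene of the annotation. Of the 18 XX-biased regulators 9 starts were acetylated in both lists, 1 in the XY list only and 8 in neither. The exception was Lbh, a transcriptional cofactor of limb bud and heart, with a region of 2799 bp at chr17:73266001-73268799 in the XY list. Of the 44 XY-biased regulators 25 starts were shared, 2 were XX-only (Eomes and Ybx2), none was XY-only, and 17 were acetylated in neither. The 3 list-only starts all lay in the list of the sex with the lower expression, and that of Eomes has no region in the reduced XX list. XY-only starts were 5.56% of the XX-biased regulators, and XX-only starts 4.55% of the XY-biased ones. Neither group had a list-only start in the other direction. Of all genes 2.82% had an XX-only and 2.82% an XY-only start, and the share in both directions together is the sum of these. With 3 genes this is a description, and a relation to expression was not tested. The neighbourhood of T, the mesoderm gene brachyury, was XX-only with a region of 1999 bp 3.09 kb upstream, and that of Mesp1 XY-only with the 0.526 kb of a region that falls inside its window.

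Within 50 kb or over the gene, list-only regions lay at further regulators without changing whether the start was acetylated. Among the XX-biased ones XX-only regions lay at Baz2b (2599 bp, in the body) and Mitf, and XY-only regions at Zfp59 (2199 bp) and Top2b (1199 bp), with Apobec2 holding 1 of each. Among the XY-biased ones Foxp4 had XX-only regions of 6399 and 1799 bp and Dot1l, the methyltransferase of H3 lysine 79, of 4599 and 3999 bp. Lin28a had 2 (2599 and 999 bp), Phc1 had 2 (3799 and 2399 bp), and Zfp296 (4999 bp), Foxi3 (2599 bp), Mixl1 (2999 bp), Bcl6b (1999 bp) and Nfxl1 (599 bp) had 1 each. XY-only regions lay at Lef1, a nuclear partner of beta-catenin (3799 and 2599 bp), and at Pou2f3 (3799 bp), Hif3a (3799 bp), Sp5 (2999 bp), Smarcd1 (2599 bp) and Tbx20 (1799 bp). Nr6a1, Zglp1, Arid1a and Bahcc1 had regions of both kinds. So did Eomes, where the XX-only region is the one that makes its start XX-only.

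The study displays the marks at Mitf, Hoxb9, Dnmt3l and Meis2, among other genes that it discusses. XX-only regions lay near each of these, a count not set against other genes, and Mitf and Hoxb9 had no acetylated start in either list. Mitf, the master regulator of pigment cells, had an XX-only region of 4199 bp, 47.1 kb upstream of its nearest TSS and 100.4 kb from any XY region, with 17.7 kb of acetylated bases in XX and 13.6 kb in XY within 50 kb. Hoxb9 had the region of 2399 bp at chr11:96112801-96115199, 17.6 kb upstream. Dnmt3l had XX-only regions of 2999 bp and 2199 bp, 14.1 and 13.5 kb from a TSS, beside 39.4 kb of acetylated bases in XX and 39.0 kb in XY. Meis2 had an XX-only region of 2399 bp over a start that the XY list also has acetylated, 1.40 kb from the nearest XY region.

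ES cell markers were acetylated in both lists, and some fibroblast genes too. All 10 ES markers had an acetylated start in both lists, with widths between 8.20 and 62.0 kb in XX and between 8.20 and 62.6 kb in XY, and summed widths of 275 kb in XX and 289 kb in XY. Of 15 fibroblast markers 3 had an acetylated start in XX and 5 in XY, with summed widths of 15.4 kb in XX and 21.4 kb in XY. Col1a1 (2599 bp) and Twist1 (1999 bp) were XY-only, Col5a1, Vim and Lum were in both, and Col1a2, Col3a1, Col6a1, Thy1, Twist2, Prrx1, Fbn1, Postn, Fap and Pdgfrb had no acetylated start in either list. Twist2 had 6.998 kb of acetylated bases in XY within 50 kb and none in XX. In a wider list of 24 fibroblast genes 6 starts were in both lists, none was XX-only and 3 were XY-only. The third was S100a4, under the fourth widest XY-only region. Of all genes 2.82% had an XX-only and 2.82% an XY-only start. By the bases within 50 kb, 4 of the 24 had more in XX and 10 more in XY. Beside them stand 9175 of all genes with more in XX and 7793 with more in XY. Single members went the other way, with a start of 21399 bp in XX and 18799 bp in XY at Fn1. Tbx15 had 2799 bp in XX and 1999 bp in XY, and Snai2 an XX-only neighbourhood. The part of feeder cells in the XY-only regions was not tested.

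The distal list-only regions of both sexes resembled each other in the marks and bases beneath them. H3K4Me1 was present in both sexes at 54.4% (52.9 to 55.9%) of the 4320 XX-only and 57.6% (55.4 to 59.8%) of the 1941 XY-only distal regions, against 63.8% of the shared distal regions of the XX list and 64.0% of those of the XY list. It was in the XX list alone at 10.4% of XX-only and 4.07% of XY-only regions, and in the XY list alone at 3.98% of XX-only and 9.07% of XY-only regions. In the shared distal regions of the XX list it was in the XX list alone at 3.41% and in the XY list alone at 4.46%. Neither sex had H3K4Me1 at 31.3% of XX-only and 29.3% of XY-only regions. H3K27Me3 was absent from both sexes at 84.4% of XX-only and 84.8% of XY-only regions. The median G and C content of the central 300 bases was 46.7% in XX-only and 47.0% in XY-only regions. TGACTCA was present there in 7.52% of XX-only and 9.12% of XY-only regions, against 6.83% of all distal regions of the XX list and 7.28% of the XY list. ATGCAAAT was present in 2.31% of XX-only and 2.94% of XY-only regions, the other direction than before gene starts. TCAAGGTCA, the motif of Esrrb, was present in 1.27% of XX-only and 0.824% of XY-only regions, against 0.899% of all distal XX regions and 1.03% of all distal XY regions. Over all places, gene starts included, list-only regions lay a median of 14.4 kb (XX-only) and 14.2 kb (XY-only) from the other list. Over all places too, 11.5% of XX-only and 10.3% of XY-only regions were over 100 kb from it.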

How the data were processed

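Chromatin of the ES lines was immunoprecipitated with antibodies against H3K27Ac, and reads were aligned by the authors with Bowtie2 to mm9. The submitters' processing notes name Bowtie and deepTools. The deposited lists give chromosome, start and end of each enriched region, with no count, score or other value of enrichment. The sources used here give neither the caller and its threshold nor the way in which lines were pooled per sex. Every region starts on a grid of 200 bp. Read depth is unknown. No list for IgG or input was analysed here. H3K4Me1 and H3K27Me3 lists were read at gene starts and regions alone, and 999 XX and 799 XY regions on the sex chromosomes were left out.

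Gene models were GENCODE M1 on NCBIM37, the assembly of mm9. Overlaps were computed in Python 3.11.15 (NumPy 2.4.6, pandas 2.3.3), tested on simulated data and checked with Bedtools 2.31.1, with 6 of 6 counts equal, and intervals with SciPy 1.17.1. Named genes were the 10 widest list-only regions per sex, the 15 widest starts with nothing of the other list within 50 kb, list members with list-only starts (up to 8 a list), the regulators with list-only regions, Mitf, Hoxb9, Dnmt3l and Meis2, and the 10 largest differences in acetylated bases within 50 kb each way. Further list members named for their acetylated bases were chosen after their values were seen. The members, gene lists and rules were chosen with earlier results of these data known. Alternatives varied the list length, overlap, minimum width, distances and TSSs.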

Additional observations from a re-analysis of the deposited data

How the results depend on the processing

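No paired analysis was possible because each sex has 1 list and no replicate. The number of XX-only regions was 2298 with the 10000 widest regions of each list and 8613 when 50% of both regions had to be shared, and that of XY-only regions was 4345 with equal numbers and 6129 with the 50% overlap. The XX share of list-only gene starts, 49.96% with whole lists, was 33.6% with equal numbers, 43.5% with the 10000 widest, 42.3% with regions of at least 2 kb and 45.9% with the reduced XX list against the whole XY list. For gene bodies the same settings gave 34.7, 44.8, 44.9 and 48.0%. For neighbourhoods, 62.2% with whole lists, equal numbers (35.5%) and the 10000 widest (47.3%) reversed the direction, and the share was 52.5% with regions of at least 2 kb, 67.1% within 100 kb and 56.3% with the reduced XX list against the whole XY list. For distal regions it was 53.5% with equal numbers, 54.5% with the 10000 widest, 61.4% with the 50% overlap, 65.0% with regions of at least 2 kb and 65.5% with the reduced XX list. The reduced list drops narrow regions from XX alone, which by construction adds XY-only calls. The other 18 of 40 values stayed within the interval or 1.5 times the count of the whole lists, among them those that counted regions with a gap of at most 1 kb as shared. The setting with a reduced XX list against the whole XY list was chosen after seeing the data. Without replicates or depth, a region absent from a list may lie just under a threshold.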
